A study of Oryza sativa with 3 samples.

Results

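GER5 and GER7 are germin-like genes of rice, measured here in leaves with 1 probe set each, 2 of the 57194 probe sets on the array. They were found by the synonyms GER5 and GER7 in the gene table, at the loci LOC4345763 on chromosome 8 and LOC4334487 on chromosome 3. The table holds 8 genes with a symbol of this form. The other 6, with 8 probe sets, serve as the background of the family. Both genes were chosen by their log2 ratios to the control on these same arrays, GER5 for a high and GER7 for a low one, so their own signals are given as a description with no test.

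The study measured leaf RNA of 3 rice samples on Affymetrix arrays. The control was wild-type Guichao2, an indica cultivar, with 1 array. Lines B10201 and B10301 are Guichao2 carrying an OsEBS transgene, with 1 array each. All 3 samples were leaves pooled from 10 untreated plants at 6 weeks of age, raised in a greenhouse at 28 °C under a day of 14 h and a night of 10 h. The promoter of the transgene is not given in the sources used here. Both lines are compared with the same single control array, so their ratios are not independent of each other, and n = 2 lines counts 2 arrays.

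Germins and germin-like proteins are secreted glycoproteins with the barrel fold of the cupin family, and they bind a metal ion in the extracellular space and the cell wall. True germins of cereals are oxalate oxidases, which break oxalate down to carbon dioxide and hydrogen peroxide, while germin-like proteins have been described with superoxide dismutase and other activities. In rice a run of germin-like genes on chromosome 8 is known for its association with resistance to fungal disease. GER5 is also known as OsGLP1, whose product has been described in rice as a cell wall protein with superoxide dismutase activity.

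The signals are MAS5 values on the log2 scale. A floor was set at the median of all signals, 5.50 on that scale, and probe sets with a mean above it were kept, 26475 of 57194. The list written for leaf marker genes had 13 members on the array, of which 12 were above the floor. Their median log2 signal was 14.05 (control), 13.77 (B10201) and 14.08 (B10301). Among them are RCAR5 and PSA, the latter also named AAP-S, and whether this pair marks leaf tissue was not checked. The count and medians therefore describe the list as written. Lists for other tissues were above the floor in 2 of 9 seed genes, 3 of 3 root genes and 4 of 7 flower genes. RAG of the seed list and MADS3 of the flower list are the same locus, LOC9271572, which was not above the floor. No gene of the leaf, seed, root and flower lists was past 2-fold in both lines. Of all genes above the floor, 2% were higher and 2.61% lower by that rule. So few listed genes cannot show a difference from those shares. The part of tissue make-up in the results below was not tested. In B10301, 7705 values in 2 stretches of the table stood 1 row off and were moved back. The probe set of GER4 lies inside those stretches, and those of GER5, GER7 and the other GER genes lie outside.

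GER5 was higher in leaves of both transgenic lines. Its log2 signal was 9.83 in the control against 11.97 in B10201 and 12.75 in B10301. Both lines lay above the control, and the gap from the control to the nearer line, 2.14, exceeded the 0.79 between the lines. On the linear scale the signals were 910, 4000 and 6900, so that B10201 stood 4.39-fold and B10301 7.58-fold above the control. The mean log2 ratio was 2.53 ± 0.56 (SD, n = 2 lines). The probe set stood above 83.0% of all probe sets in the control, above 95.3% in B10201 and above 97.4% in B10301, and was above the floor on each of the 3 arrays. In RNA of whole leaves, a higher share of cells expressing a gene and more RNA per cell cannot be told apart.

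GER7 was lower in both lines. Its log2 signal was 12.00 in the control against 9.58 in B10201 and 9.67 in B10301. The lines lay close together, 0.09 apart, and 2.32 or more below the control. On the linear scale the signals were 4080, 764 and 815, that is, 5.35-fold lower in B10201 and 5.01-fold lower in B10301. The mean log2 ratio was -2.37 ± 0.07 (SD, n = 2 lines). The probe set stood above 95.4% of all probe sets in the control, above 81.6% in B10201 and above 82.4% in B10301, and was above the floor on each of the 3 arrays.

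**Figure D1:**
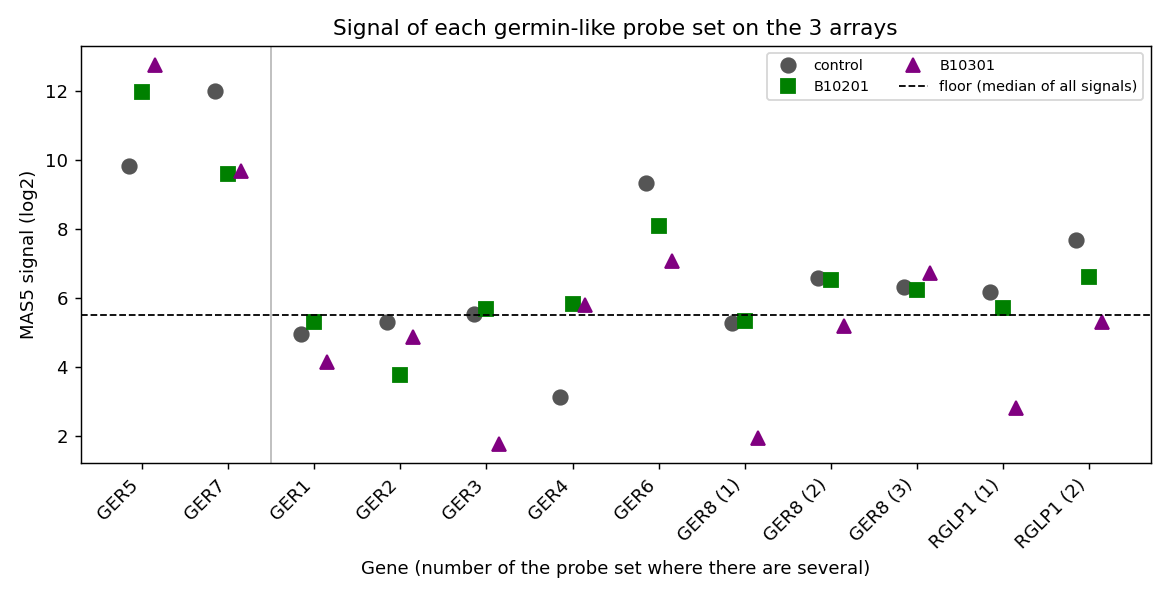
Log2 MAS5 signal of each probe set of the germin-like genes (vertical axis) by gene (horizontal axis), with 1 point per array: circles for the control, squares for B10201 and triangles for B10301. The dashed line is the floor at 5.50; GER5 (left) was at 9.83 in the control against 11.97 and 12.75 in the lines, GER7 at 12.00 against 9.58 and 9.67, and GER1 to GER4 lay near or below the floor.

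The sizes of these ratios stand far out among all genes, as the choice of the genes fixed. Of 14397 genes above the floor, with 1 probe set per gene, 0.34% had a mean ratio as high as that of GER5 or higher, and 0.32% had one as low as that of GER7 or lower. Over the same genes, 2% were at least 2-fold higher in both lines and 2.61% at least 2-fold lower in both, and the median log2 ratio was -0.02 for B10201 and -0.01 for B10301. Over probe sets, 619 (2.34%) were higher and 775 (2.93%) lower by that rule, which became 465 and 1055 when each array was centred on its median. That centring takes 0.15 off log2 ratios in B10201 and 0.14 in B10301 where neither side is at the floor, and left GER5 at 1.98 and 2.79 and GER7 at -2.57 and -2.46. The genes differed in how alike the lines were. A gap between the lines as wide as that of GER5 or wider was found in 6.9% of genes, and one as wide as that of GER7 or wider in 70.2%, where the median gap was 0.18.

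**Figure D2:**
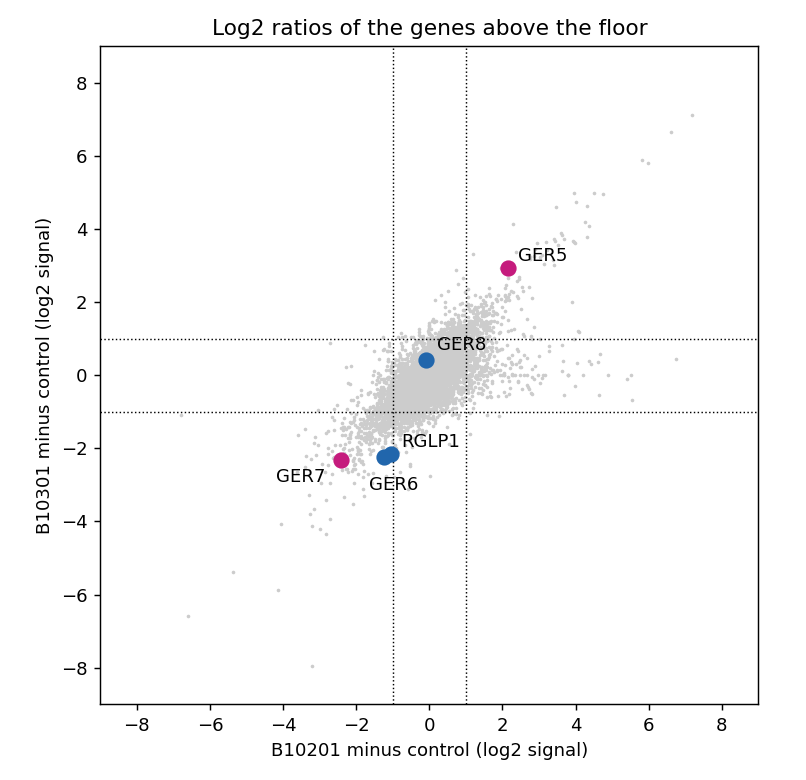
Log2 ratio to the control in B10301 (vertical axis) against that in B10201 (horizontal axis) for the 14397 genes above the floor, 1 grey point per gene, with dotted lines at 2-fold. GER5 lies at 2.14 and 2.92 and GER7 at -2.42 and -2.32, while GER6 (-1.25 and -2.24) and RGLP1 (-1.06 and -2.16) also lie in the lower left and GER8 near the centre; both axes share the control array.

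Of the other 6 GER genes, GER6 and GER8 passed the filter and could be counted. GER6 was past 2-fold in both lines, on the lower side with GER7, where 2.61% of all genes were lower and 2% higher by that rule. GER6 had log2 signals of 9.32 in the control, with 8.07 in B10201 and 7.08 in B10301. Each line lay below the control, B10301 lowest, 2.37-fold lower in B10201 and 4.74-fold in B10301, which averaged -1.74 ± 0.71 (SD, n = 2 lines) as log2 ratios. It did not pass the test across all probe sets (limma, adjusted p = 0.274, unadjusted p = 0.0402). That test called 0 of 26475 probe sets (0%) at an adjusted p under 0.05, with 17.1% at an unadjusted p under 0.05. Its spread rests on the lines alone, with 1 residual degree of freedom, and the control is taken to vary as they do.

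GER8, on chromosome 1, showed no direction on which its probe sets were alike. It has 3 probe sets, all of a kind that may cross-hybridise with related transcripts, and 2 passed the filter. The one with the higher mean over the 3 arrays read 6.32 in the control, with 6.23 in B10201 and 6.72 in B10301 on the log2 scale (limma adjusted p = 0.864). The other read 6.57, 6.52 and 5.18 (adjusted p = 0.662), so B10301 was above the control by the former and below it by the latter. The third, below the filter, read 5.27, 5.33 and 1.95.

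GER1, GER2, GER3 and GER4 did not pass the filter, and their signals near or below the floor carry no order. GER1 read 4.95, 5.31 and 4.14 on the log2 scale in the control, B10201 and B10301, and GER2 read 5.30, 3.76 and 4.87. GER3 read 5.52, 5.69 and 1.75. GER1 and GER2 were thus under the floor on all 3 arrays, and GER3 in B10301.

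GER4, on chromosome 1, shows what the displaced values do to a single gene. As deposited, its log2 signal was 3.14 in the control, with 5.82 in B10201 and 11.65 in B10301, which would place B10301 far above both other arrays. The probe set in the next row read 11.32 in the control and 11.50 in B10201, next to the 11.65. Moved back by 1 row, the B10301 value of GER4 was 5.78, next to the 5.82 of B10201. Over the 6717 probe sets of that stretch, B10301 correlated with the mean of the other arrays at 0.397 as deposited and at 0.939 after the move, a description across probe sets of the same arrays. With the moved value, both lines were 0.31 or less above the floor and the control was below it.

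The gene table places 6 loci with a germin-like symbol or synonym within a run of 10 neighbouring genes on chromosome 8. Their order is GER3, GER2, GER1, GER6, LOC112935981 and LOC4344846, the last pair both carrying the synonym RGLP2. The other 4 genes of the run carry no such name, and whether they are germin-like was not examined. GER5 lies on the same chromosome but outside that run, with 1299 genes between. LOC4344846, also listed as RGLP1, has 2 probe sets. The brighter read 7.67 in the control, with 6.61 in B10201 and 5.30 in B10301 on the log2 scale, the last below the floor. It was 2.08-fold lower in B10201 and at least 4.48-fold lower in B10301 (limma adjusted p = 0.327). Its other probe set read 6.16, 5.70 and 2.81 and did not pass the filter. In the run, GER6 and RGLP1 were thus the 2 genes whose mean signal passed the filter. Both were at least 2-fold lower in both lines, against 2.61% of all genes, and neither was past the test. So few genes cannot show a difference from that share. LOC112935981 and the other 4 genes of the run have no probe set listed.

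Of the genes beside GER5 and GER7 on their chromosomes, 8 had a value, and 1 of them was past 2-fold in both lines, on the higher side, against 2% of all genes higher and 2.61% lower by that rule. Of the 10 genes nearest to GER7, 5 on each side, 5 had a value, with log2 ratios between -0.92 and 0.61 and 0 past 2-fold in both lines. Its direct neighbour LOC4334486 read 10.74, 10.78 and 10.84 in the control, B10201 and B10301. Of the 10 nearest to GER5, 3 had a value. LOC4345760, 5 genes away, was higher in both lines, at 7.90, 9.44 and 9.52, and was the 1 neighbour past 2-fold in both. OG1 read 11.63, 11.94 and 11.80. CKX11, a symbol of a cytokinin dehydrogenase, which breaks cytokinin down, had lower signals, at 7.81 in the control, with 5.71 in B10201 and 7.14 in B10301.

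**Figure D3:**
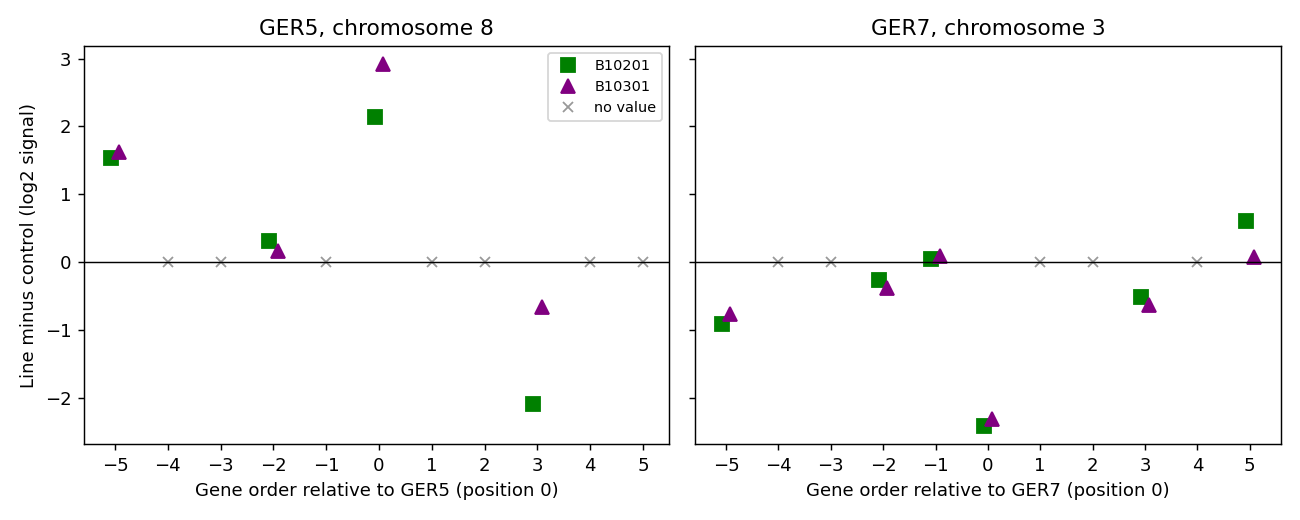
Log2 ratio to the control (vertical axis) of GER5 (left) and GER7 (right) and of the 5 genes on each side in the gene table (horizontal axis, gene order), squares for B10201 and triangles for B10301. Crosses mark genes with no probe set listed, which were not measured. Neighbours of GER7 lay between -0.92 and 0.61, and those of GER5 between -2.10 and 1.63.

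The genes with the most similar profiles were sought among 1997 other genes with a readable symbol, by the distance between log2 signals over the 3 arrays after each gene's own mean was taken off. With 3 arrays that share 1 control, this describes likeness in these samples alone. Nearest to GER5 was ACLA-2, a subunit of the ATP-citrate lyase that makes acetyl-CoA in the cytosol, at a distance of 0.36, with log2 signals of 8.52 (control), 10.61 (B10201) and 10.98 (B10301). EGY3, of a family of chloroplast membrane proteases, followed at 0.60, and the tonoplast aquaporin OsTIP4;2 at 0.73. OsTBL6, of a family that acetylates wall polysaccharides, and LIS, a linalool synthase symbol, were at 0.74 and 0.84. All 5 were higher in both lines, by log2 ratios of 1.42 or more. ACLA-2 and LIS lie in the displaced stretches, and their B10301 signals as deposited were 12.57 and 6.76.

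Nearest to GER7 was GLU11, a symbol used for an endoglucanase, at a distance of 0.34, with log2 signals of 9.33 in the control, with 7.38 in B10201 and 7.29 in B10301. Its B10301 value lies in a displaced stretch and was 2.61 as deposited. The lipoxygenase CM-LOX2, of a family that oxidises fatty acids, followed at 0.37, and CYP71P1, a cytochrome P450 that makes serotonin from tryptamine, at 0.38. A gene listed as peroxidase (LOC4344277) was at 0.55, and LOGL9, whose relatives activate cytokinins, at 0.58. LOGL9 read 8.61, 6.74 and 7.08 in the control, B10201 and B10301. All 5 lay below the control in both lines.

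**Figure D4:**
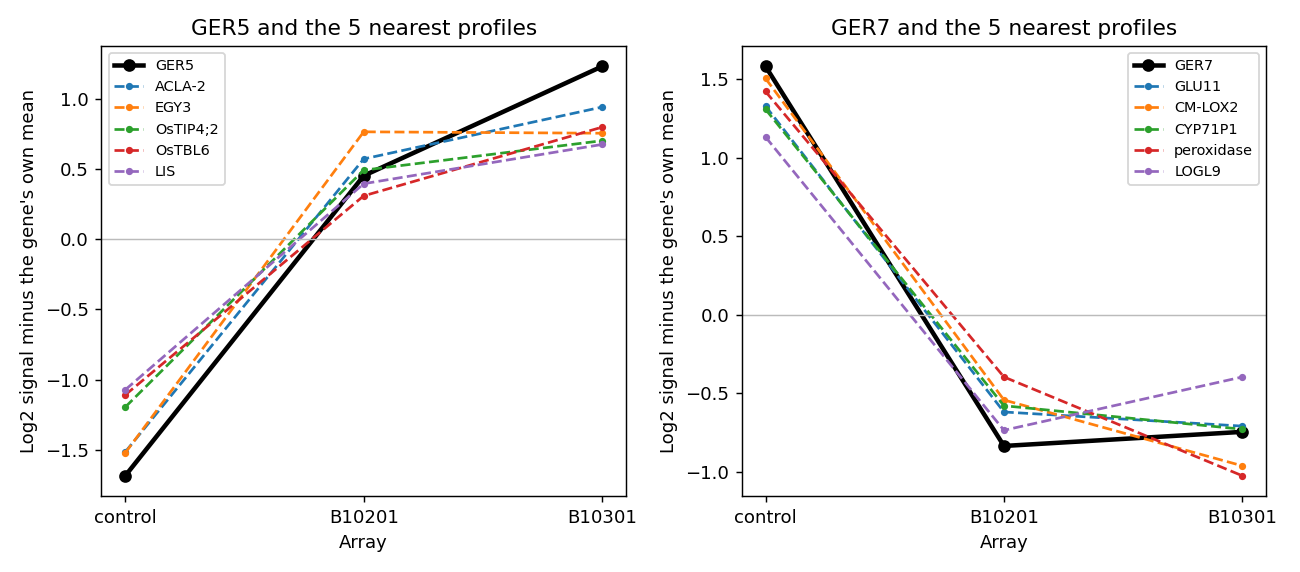
Log2 signal minus the gene's own mean over the 3 arrays (vertical axis) for GER5 (left) and GER7 (right), solid black, and the 5 genes with the nearest profiles, dashed, by array (horizontal axis). The genes beside GER5 were lowest in the control and those beside GER7 highest in it, as the measure of likeness selects; the lines between points only join the values of 1 gene.

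Genes of 6 lists were examined that make or remove superoxide and hydrogen peroxide, which germin activities consume and produce. Of 24 such genes above the floor, 1 was at least 2-fold lower in both lines and 0 at least 2-fold higher, against 2.61% and 2% of all genes, and 0 passed limma at an adjusted p under 0.05. The 4 superoxide dismutases, which turn superoxide into hydrogen peroxide, had medians of -0.18 (B10201) and 0.27 (B10301) in log2 ratio. Highest was sodCp, the chloroplast copper-zinc enzyme, with log2 signals of 13.02 in the control, with 13.86 in B10201 and 14.46 in B10301 (limma adjusted p = 0.251). Its B10301 value, moved back by 1 row, was 4.09 as deposited. The manganese enzyme sodA read 12.42, 12.35 and 12.16, SODCC.1 12.54, 12.19 and 12.74, and SODCC.2 11.89, 11.61 and 12.24. The NADPH oxidase OsrbohB, of the family that makes extracellular superoxide, had log2 ratios of 0.31 and 0.44 (adjusted p = 0.276).

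The list written for class III peroxidases, which use hydrogen peroxide in the cell wall, had 6 genes above the floor and medians of 0.08 in both lines. Of these, 4 carry PRXII symbols, which name peroxiredoxins of another family, and none of those was 2-fold from the control. PRXIIE-2 (0.49 and 0.78), PRXIIF (0.46 and 0.60) and PRXIIC (0.31 and 0.33) were on the higher side in log2 ratio, and PRXIIE-1 (-0.16 and -0.17), with a B10301 value moved back by 1 row, on the lower. The peroxidase LOC4344277, already named beside GER7, read 11.03, 9.21 and 8.58 and was the 1 gene of the 6 lists lower by 2-fold in both lines (limma adjusted p = 0.204). PRX112 had log2 ratios of -0.30 and -0.45.

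For the catalases, which remove hydrogen peroxide in peroxisomes, catA had log2 ratios of -0.01 and 0.27 and CatB of -0.12 and -0.10. The 7 ascorbate peroxidases had medians of -0.05 and 0.04. APX5 had the highest mean ratio, 0.97 ± 0.80 (SD, n = 2 lines), from 5.50 in the control, at the floor, to 7.03 in B10201 and 5.91 in B10301, and APX7 the lowest, -0.63 ± 0.24. The list for oxalate and glycolate oxidation held 4 GLO genes, symbols of the glycolate oxidases of photorespiration, and no oxalate oxidase symbol was found. Its medians were 0.22 and 0.37, with GLO1 at 0.46 and 0.75, GLO4 at 0.31 and 0.37, GLO5 at 0.13 and 0.38, and GLO3 at -0.98 and 0.27. The B10301 log2 signals of GLO3, GLO5 and catA, 8.18, 15.67 and 15.2, were moved back by 1 row. As deposited they were 5.38, 15.33 and 11.99. GLO3 read 7.91 in the control, so its sign in B10301 rests on the move. The probe sets of catA, APX2, GLO1 and GLO5 disagreed in sign, and averaged over them the mean log2 ratios were 0.01, 0.18, 0.22 and -0.05.

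**Figure D5:**
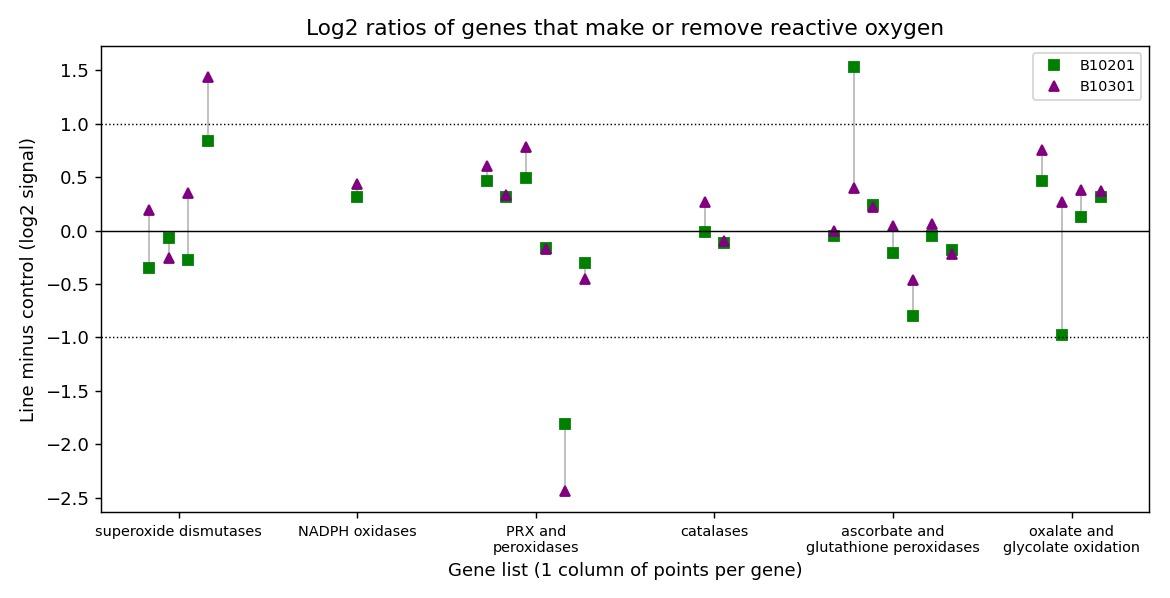
Log2 ratio to the control (vertical axis) of the 24 genes above the floor in 6 lists of genes that make or remove reactive oxygen (horizontal axis), 1 column per gene, squares for B10201 and triangles for B10301 joined by a line, with dotted lines at 2-fold. The peroxidase at -1.81 and -2.44 is the 1 gene beyond 2-fold in both lines.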

How the data were processed

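The deposited table holds log2 signals for 57194 probe sets; the submitters' processing notes name MAS5 as the authors' tool. Per the labels' protocols, biotin-labelled cRNA was made by 3' in vitro transcription. Whether probe sets were called present, and any later step, is not given in the sources used here. The log2 values ran from 0 to 16.36, and array medians were 5.41 (control), 5.56 (B10201) and 5.54 (B10301). The number of arrays limits the precision.

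In B10301, values in rows 24427 to 31143 and 53064 to 54051 were replaced by those 1 row above. Values under the median of all signals (5.50 in log2, 45.4 in linear signal) were set to it as a floor. Probe sets with a mean above it were kept. A gene was represented by its probe set with the highest mean, and a ratio with 1 side at the floor is a bound. The platform annotation gives 1 gene for 22436 probe sets, several for 95 and no gene for 34663. All 17905 genes were found in the gene table of assembly ASM3414082v1, which was used for names and gene order only.

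limma 3.58.1 (R 4.3.3, intensity trend, two-sided, Benjamini-Hochberg over all probe sets, threshold 0.05) was fitted to all 3 arrays and tested on simulated data. There it called 49 of 67 changes of 2-fold, 66 of 67 of 4-fold and 66 of 66 of 8-fold, with 8 false calls over 26475 probe sets. The simulated control was given the same spread as the lines, so the simulation cannot show whether that holds for the real control. Simulated spread depended on signal alone and did not otherwise differ between probe sets. The rates above therefore cannot be taken as those of the test on the real data, where it called 0 of 26475 probe sets. Other steps used Python 3.11.15, numpy 2.4.6, pandas 2.3.3 and matplotlib 3.10.9. The labels do not say that the lines were replanted, so the spread between them may be partly technical. The members, gene lists and alternatives were chosen with earlier results of these data known. Named were the germin-like genes found by symbol or synonym (GER plus a number, or starting GLP, RGLP or OXO, with an optional Os). Germin-like genes without such a name were not sought. Also named were 5 neighbours on each side and the 5 nearest profiles of GER5 and GER7, and up to 4 genes per list by mean ratio. Further list members were added after their values were seen.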

Additional observations from a re-analysis of the deposited data

How the results depend on the processing

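GER5 ran from 2.14 to 2.92 in mean log2 ratio over the alternatives, the bounds being the values with 1 line left out. GER5 and GER7 have 1 probe set each, outside the displaced stretches and above every floor used. Settings for the floor, the displaced values and the choice of probe sets therefore could not move them, and their unchanged values there are no support. Besides leaving out a line, only array scaling could, and it gave 2.38 (centred on medians) and 2.55 (quantile normalization) for GER5. GER7 ran from -2.52 to -2.32. It was -2.36 with quantile normalization and -2.52 with arrays centred on their medians, the latter outside the range of the 2 lines, -2.42 to -2.32. The spread between the lines, an SD of 0.07, thus does not cover the effect of scaling, nor any variation of the single control. GER6 (-1.25 to -2.24 with 1 line left out, adjusted p up to 0.606) and RGLP1 (-1.06 to -2.16) stayed lower and did not pass limma in any alternative where they were tested; with a floor at the 75th percentile neither was kept. GER8 turned from 0.15 to -0.20 with its probe sets averaged and ran from -0.09 to 0.40 with 1 line left out. The number of other GER genes at least 2-fold away was 2 with a floor at the 25th percentile and 2 without a floor, the second being GER4 in each, and 0 with a floor at the 75th percentile. With these 3 settings the probe sets at least 2-fold higher numbered 3446, 6425 and 158, and those lower 2551, 4569 and 280; with 1 line alone they numbered 1234 to 1379 and 1401 to 1444. limma called 128 probe sets without a floor, 85 with kept values not raised to it and 52 with robust moderation; why was not tested. With 1 line left out limma has no residual degree of freedom, so no call was made. No paired analysis was possible because the labels give the samples no replicate numbers and the control is 1 array.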

Other observations

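At low signal, B10301 read far below both other arrays for several germin-like probe sets: 1.75 for GER3, 1.95 for the GER8 probe set below the filter and 2.81 for the dimmer one of RGLP1, in log2 signal. Among probe sets between 5 and 6.5 on the other arrays, the value was at least 3 log2 units lower than both in 5.66% for B10301, 5.06% for B10201 and 7.17% for the control. Of the 4 germin-like probe sets in that range for B10301, 2 met this rule, the GER3 and GER8 ones just named, while that of RGLP1 did not. This count was chosen after the values were seen.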
